A study of Homo sapiens with 6 samples.

Results

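The receptor tyrosine kinases outside the ERBB family and IGF1R were examined in H661, a human large cell lung carcinoma line. The members were 44 genes, listed by name as cell surface kinases of the HGF, TAM, FGF, PDGF, VEGF, angiopoietin, neurotrophin, Wnt, collagen, agrin, GDNF, ALK and Eph receptor families. A probe set that carries a single gene symbol measured 40 of the 44, among 18404 genes measured in this way. The other 4 (RET, ALK, ROS1 and EPHB2) were not analysed here. The study hybridised RNA from 3 samples of H661 cells given a scramble shRNA (Scr-sh) and 3 samples of H661 cells given an shRNA against SALL4 (SALL4-sh) to Affymetrix arrays. Both hairpins were delivered by lentivirus in a puromycin-selectable vector, and 1 SALL4 hairpin was used. Neither the time of harvest nor whether the 3 samples of a group came from separate transductions is given, so the p-values reflect sample-to-sample spread only, and that spread may be technical. The labels give 10% serum and Trizol extraction, while the methods of the study give another serum level and a column kit.

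Receptor tyrosine kinases span the membrane once and carry a kinase domain inside the cell. A ligand brings receptors together, they phosphorylate each other on tyrosine, and adaptor proteins that bind the phosphorylated sites start MAPK, PI3K and phospholipase C signaling. In lung cancers, mutation, amplification or fusion of members such as MET, RET, ALK and ROS1 are known drivers, and AXL and FGFR1 are studied in resistance to inhibitors of other kinases. The Eph receptors differ from most members in that their ligands, the ephrins, are held on the surface of neighbouring cells.

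SALL4 RNA was measured first as a check of the labels. Its normalized intensity was 126, 104 and 130.2 in the 3 Scr-sh samples and 33.6, 31.9 and 26.5 in the 3 SALL4-sh samples. All SALL4-sh values lay under all Scr-sh values, and limma gave a log2 fold change of -1.97 (adjusted p = 0.0159). Of 7 epithelial markers, EPCAM was between 589.8 and 1113 on the 6 arrays and KRT18 between 28.8 and 76.7. KRT7 was between 12.7 and 15.3 and KRT19 between 10.2 and 15.0. KRT8 was between 8, the lowest value in the table, and 11.1, and CDH1 between 8 and 17.3. CLDN4 was at 8 on all arrays. That lowest value is a floor: a signal listed at 8 has no measured level beneath it. Of 7 endothelial markers, the defining PECAM1, CDH5 and VWF were at the floor on all 6 arrays, while CLDN5 (30.5 to 38.0), EGFL7 (19.0 to 26.9) and ROBO4 (9.75 to 12.5) were above it on all 6 and ESAM on 5. Of 6 leukocyte markers measured, PTPRC, CD3E and LYZ were at the floor on all arrays, CD79A (13.04 to 18.5) was above it on all 6, and CD14 and ITGAM were above it on some.

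The receptors fell into 3 sets by detection. In the first, 22 of the 40 (55.0%, beside 65.5% of all genes) were above the floor on all 6 arrays. In the second, 10 were above it on some arrays. In the third, 8 were at the floor on all 6: MST1R, the receptor of macrophage-stimulating protein, KIT and FLT3, growth factor receptors of blood progenitors, FLT1 and KDR, receptors of VEGF, TEK, the angiopoietin receptor of endothelium, NTRK2, the BDNF receptor, and MUSK, which organises the neuromuscular junction. MET, the HGF receptor, was above the floor on a single array, Scr-sh 1, at 9.50. Of the Eph receptors among the 44 members, 9 of the 10 measured were above the floor on all 6 arrays. Outside the list, EPHA6 was at the floor on all 6, EPHA8 was at 8.12 to 10.2 and EPHA10 at 13.7 to 22.4. The levels of different receptors cannot be ranked against each other, since each probe set has its own response.

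**Figure D1:**
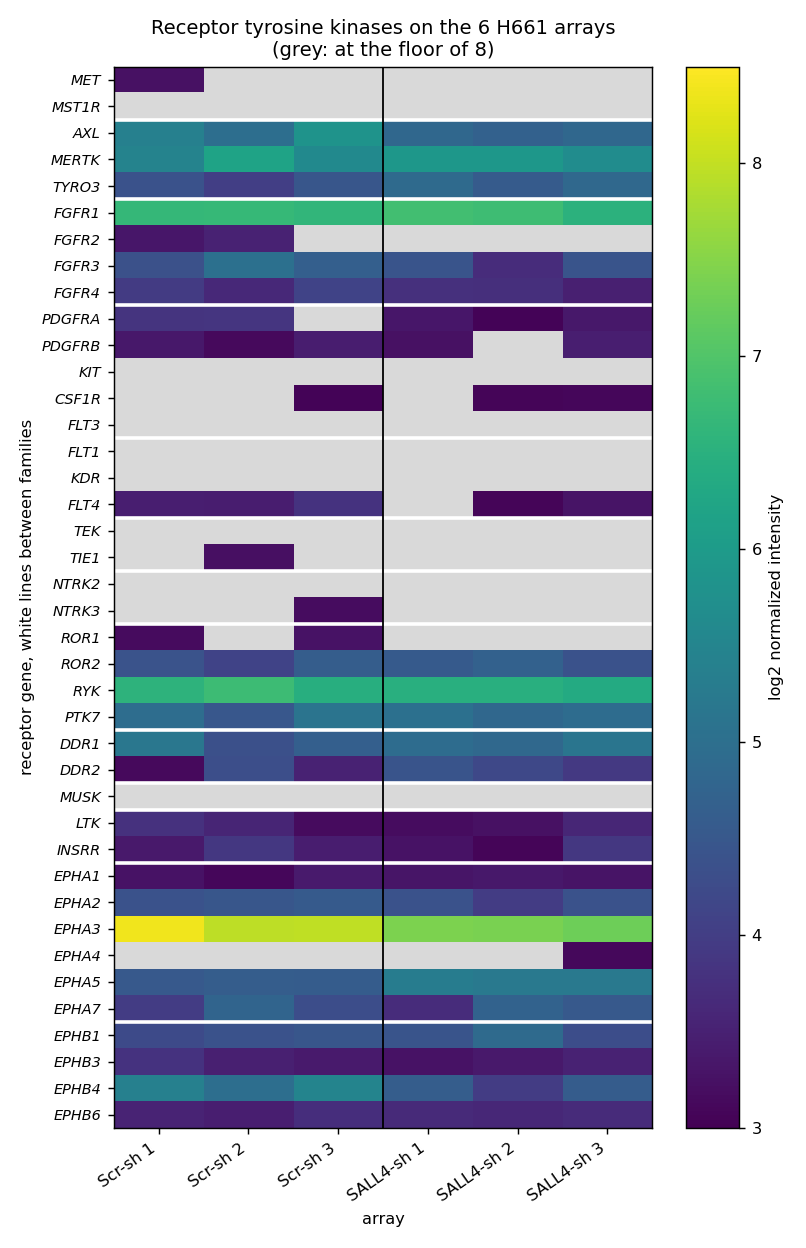
Log2 normalized intensity (colour) of the 40 measured receptor genes (rows, white lines between families) on the 3 Scr-sh and 3 SALL4-sh arrays (columns). Grey cells are at the floor of 8, which 8 receptors show on all 6 arrays. Colours show each gene across arrays and do not rank RNA amounts between genes.

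Among the receptors, 1 rose and 0 fell after SALL4 knockdown when limma's adjusted p was held to 0.05. EPHA5 was the one that rose. Those counts are 2.50% and 0.00% of the 40, beside 1.18% of all 18404 genes called higher and 1.33% called lower. At an unadjusted p under 0.05, 2 receptors were higher and 3 lower (5.00% and 7.50%, beside 9.55% and 7.87% of all genes). The median log2 fold change was 0.00 over the 40 receptors and 0.00 over all genes. Genes at the floor on all 6 arrays, 8 receptors and 3893 of all genes, enter these medians as 0. Over the 32 receptors above the floor on any array the median was -0.07, with no all-gene median to set beside it. When the dimmest genes, those up to the 25th percentile of mean intensity, were set aside, 27 receptors were tested: 1 was called higher (EPHA5) and 2 lower (EPHA3 and EPHB4). These are 3.70% and 7.41% of the 27, beside 5.95% and 5.54% of the 13803 genes then tested.

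Overlap between the groups was also counted, which needs no model. Of the 32 receptors above the floor on any array, 2 had all SALL4-sh values over all Scr-sh values (6.25%, beside 15.0% of all genes), and 5 had all SALL4-sh values under all Scr-sh values (15.6%, beside 12.5%). EPHA5 and TYRO3 were higher without overlap. AXL, FLT4, EPHA2, EPHA3 and EPHB4 were lower without overlap.

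The RefSeq promoter sequences of the 3 Eph receptors that were called in either version are shown here, because these are the only members that passed the test with or without the filter, 1 higher and 2 lower. Each run is 300 bases, from 250 before an annotated start to 50 after it, on the gene's own strand in GRCh38.p14, and capitals mark GC boxes (GGGCGG, or CCGCCC on the other strand) and CCAAT boxes (CCAAT, or ATTGG on the other strand). EPHA5 has a second annotated start, which is not printed.
EPHA5, chr4:65670440-65670739, minus strand: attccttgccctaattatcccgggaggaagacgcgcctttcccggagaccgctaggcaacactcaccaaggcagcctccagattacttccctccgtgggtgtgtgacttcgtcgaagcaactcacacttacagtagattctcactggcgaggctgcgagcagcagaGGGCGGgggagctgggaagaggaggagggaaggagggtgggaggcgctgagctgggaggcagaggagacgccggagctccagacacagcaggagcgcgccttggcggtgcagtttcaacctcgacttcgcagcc
EPHA3, chr3:89107371-89107670, plus strand: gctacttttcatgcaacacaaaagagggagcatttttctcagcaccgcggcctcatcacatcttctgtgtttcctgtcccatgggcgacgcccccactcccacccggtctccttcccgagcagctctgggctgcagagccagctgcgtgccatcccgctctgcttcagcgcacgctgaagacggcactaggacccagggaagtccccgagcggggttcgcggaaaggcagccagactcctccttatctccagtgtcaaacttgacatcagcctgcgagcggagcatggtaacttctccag
EPHB4, chr7:100827474-100827773, minus strand: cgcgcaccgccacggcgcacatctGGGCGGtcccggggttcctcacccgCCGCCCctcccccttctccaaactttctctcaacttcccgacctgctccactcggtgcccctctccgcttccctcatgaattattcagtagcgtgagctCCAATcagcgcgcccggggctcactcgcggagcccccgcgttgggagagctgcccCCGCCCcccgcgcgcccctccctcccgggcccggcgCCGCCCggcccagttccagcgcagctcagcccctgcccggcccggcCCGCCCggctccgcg
The EPHB4 run held 5 GC boxes and 1 CCAAT box, the EPHA5 run held 1 GC box, and the EPHA3 run held neither motif. GC content was 74.3% for EPHB4, 61.7% for EPHA5 and 59.7% for EPHA3, with 36, 19 and 17 CpG sites. A GC box occurs in 45.0% and a CCAAT box in 34.6% of the 35116 RefSeq promoters searched, and none of the 3 runs held TATAAA, which occurs in 11.5%. These matches describe the letters and were not related to the change in expression by any test.

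EPHA5, a receptor for ephrin-A ligands that is best known from axon guidance, had a normalized intensity of 23.4, 24.6 and 24.2 in the Scr-sh samples and of 39.6, 37.3 and 37.1 in the SALL4-sh samples. Values within each group lay close together and the groups were far apart. The mean went from 24.0 ± 0.617 (SD, n = 3) to 38.0 ± 1.39 (SD, n = 3), a ratio of 1.58 with a 95% confidence interval of 1.48 to 1.69. On the log2 scale limma put the difference at 0.66 ± 0.04 (standard error), with an adjusted p of 0.0103. The call rests on this small spread. The adjusted p from limma was 0.0885 when the variance was modelled with the intensity trend and robustly, and 0.105 with the replicate number as a block. It was 0.0595 without Scr-sh 3 and 0.0514 without SALL4-sh 2. The log2 fold change stayed between 0.63 and 0.68 whichever array was left out.

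EPHA3, another ephrin-A receptor and one that is recurrently mutated in lung cancer, had values of 336, 246 and 251 in Scr-sh and of 172, 168 and 157 in SALL4-sh. Every SALL4-sh value was under every Scr-sh value, and Scr-sh 1 stood above the other Scr-sh samples. The mean of 278 ± 50.3 (SD, n = 3) in Scr-sh compares with 165 ± 7.80 (SD, n = 3) in SALL4-sh (ratio 0.60, 95% confidence interval 0.46 to 0.78). The log2 fold change of -0.73 (95% confidence interval -1.12 to -0.35) had an adjusted p of 0.0967 from limma over all genes and of 0.0278 with the intensity filter. With each array left out in turn it ranged from -0.81 to -0.59.

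EPHB4, the receptor of ephrin-B2, gave 42.1, 31.6 and 44.4 in Scr-sh and 24.7, 15.7 and 24.4 in SALL4-sh. The groups did not overlap, and replicate 2 was the lowest of its group on both sides. The means were 39.4 ± 6.80 (SD, n = 3) and 21.6 ± 5.15 (SD, n = 3). The log2 fold change of -0.88 (95% confidence interval -1.55 to -0.21) was the lowest among the receptors above the floor on all arrays, with an adjusted p from limma of 0.186 over all genes and 0.0361 with the filter. EPHA2, an ephrin-A receptor of epithelial cells, was 21.0, 22.2 and 23.7 in Scr-sh and 20.8, 15.7 and 20.9 in SALL4-sh. The EPHA2 groups were separated by a narrow gap, and its log2 fold change of -0.23 (limma, adjusted p = 0.534) had an interval that included 0 and became -0.10 without SALL4-sh 2. The other Eph receptors on the list, EPHA1, EPHA4, EPHA7, EPHB1, EPHB3 and EPHB6, had overlapping groups and log2 fold changes from -0.17 to 0.19. EPHA7 varied widely between samples of a group, from 15.7 to 27.4 in Scr-sh and from 12.98 to 26.4 in SALL4-sh. Its interval of -1.03 to 0.97 does not exclude a change of up to about 2-fold either way.

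**Figure D2:**
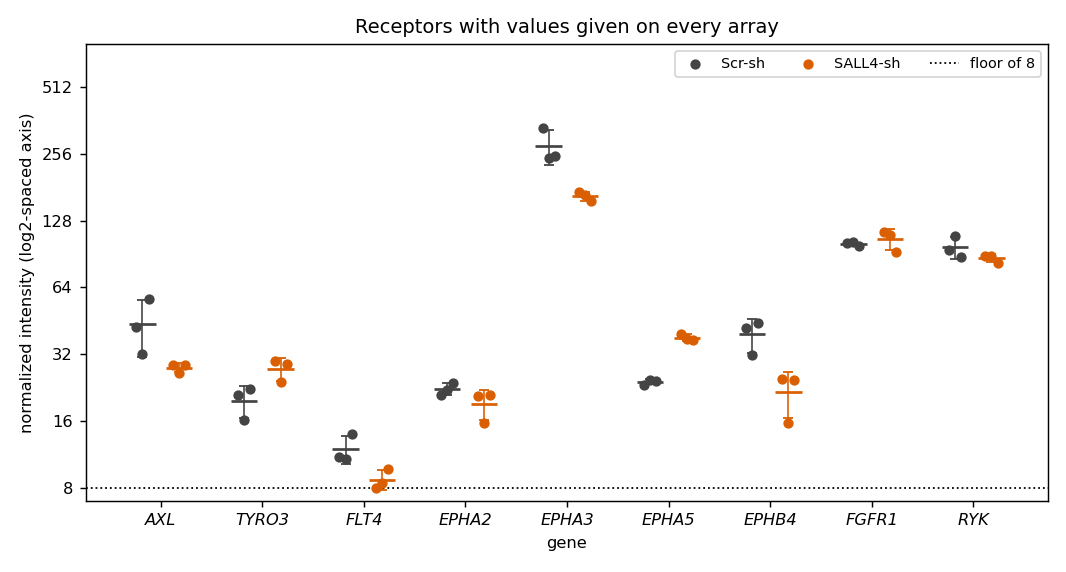
Normalized intensity (log2-spaced axis) of the 7 receptors whose groups do not overlap and of FGFR1 and RYK. Points are single arrays, horizontal bars are means and error bars are SD (n = 3 per group). EPHA5 goes from 24.0 to 38.0, while EPHA3 goes from 278 to 165.

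The TAM receptors AXL, MERTK and TYRO3 bind GAS6 and protein S, bridging ligands that attach to phosphatidylserine on dying cells. All 3 were above the floor on all 6 arrays, and none passed the test. AXL was 42.3, 32.0 and 57.0 in Scr-sh and 28.6, 26.3 and 28.6 in SALL4-sh. The Scr-sh samples were widely spread and the SALL4-sh samples were not, with an SD of 12.6 and 1.33. The log2 fold change of AXL was -0.61 (95% confidence interval -1.24 to 0.01, adjusted p = 0.293 from limma) and it was -0.40 without Scr-sh 3. TYRO3 went the other way, with 21.0, 16.1 and 22.3 in Scr-sh and 30.0, 23.9 and 28.9 in SALL4-sh. Its lowest SALL4-sh value was above its highest Scr-sh value, and its log2 fold change was 0.49 (95% confidence interval 0.04 to 0.93, adjusted p = 0.253 from limma). MERTK had overlapping groups, between 44.04 and 72.8 in Scr-sh and between 51.1 and 60.4 in SALL4-sh.

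FGFR1, the FGF receptor that is amplified in some squamous lung cancers, was 102, 103 and 98.1 in Scr-sh and 114, 111 and 92.5 in SALL4-sh. The groups overlapped. Its log2 fold change was 0.06 (95% confidence interval -0.18 to 0.31) and turned to -0.02 after cyclic loess normalization. Of the other FGF receptors, FGFR3 had a log2 fold change of -0.51 with an interval of -1.30 to 0.28, FGFR4 had one of -0.24, and FGFR2 was above the floor only in Scr-sh 1 and Scr-sh 2, at 10.0 and 11.4.

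RYK, a Wnt receptor with a kinase domain that lacks activity, was 94.2, 109 and 87.5 in Scr-sh and 89.0, 88.9 and 82.5 in SALL4-sh. These ranges overlapped, and its log2 fold change was -0.15 (adjusted p = 0.557 from limma). ROR2, a receptor of WNT5A, and PTK7, a co-receptor of planar cell polarity signaling, had log2 fold changes of 0.17 and 0.07, and ROR1 was above the floor only in Scr-sh 1 and Scr-sh 3. The collagen receptor DDR1 had a log2 fold change of 0.24 and DDR2 of 0.51 (95% confidence interval -0.45 to 1.47). DDR2 was 8.82, 19.96 and 11.6 in Scr-sh and 21.6, 18.2 and 15.1 in SALL4-sh, so its groups overlapped, and a weaker probe set of DDR2 gave -0.04.

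Of the receptors known from endothelial, stromal and blood cells, FLT4, PDGFRA, PDGFRB, CSF1R and TIE1 were near the floor. FLT4, the VEGF-C receptor of lymphatic endothelium, was 11.1, 10.8 and 13.9 in Scr-sh and 8, 8.40 and 9.72 in SALL4-sh, where SALL4-sh 1 was at the floor. Its groups did not overlap, and its log2 fold change of -0.45, which the floor can understate, had an adjusted p of 0.202 from limma. PDGFRA and PDGFRB were each at the floor on a single array and reached 14.4 and 11.1. CSF1R stayed between 8 and 8.59. TIE1, NTRK3 and EPHA4 were each above the floor on a single array. LTK and INSRR, relatives of ALK and of the insulin receptor, were above it on all arrays, with log2 fold changes of -0.16 for both and overlapping groups.

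**Figure D3:**
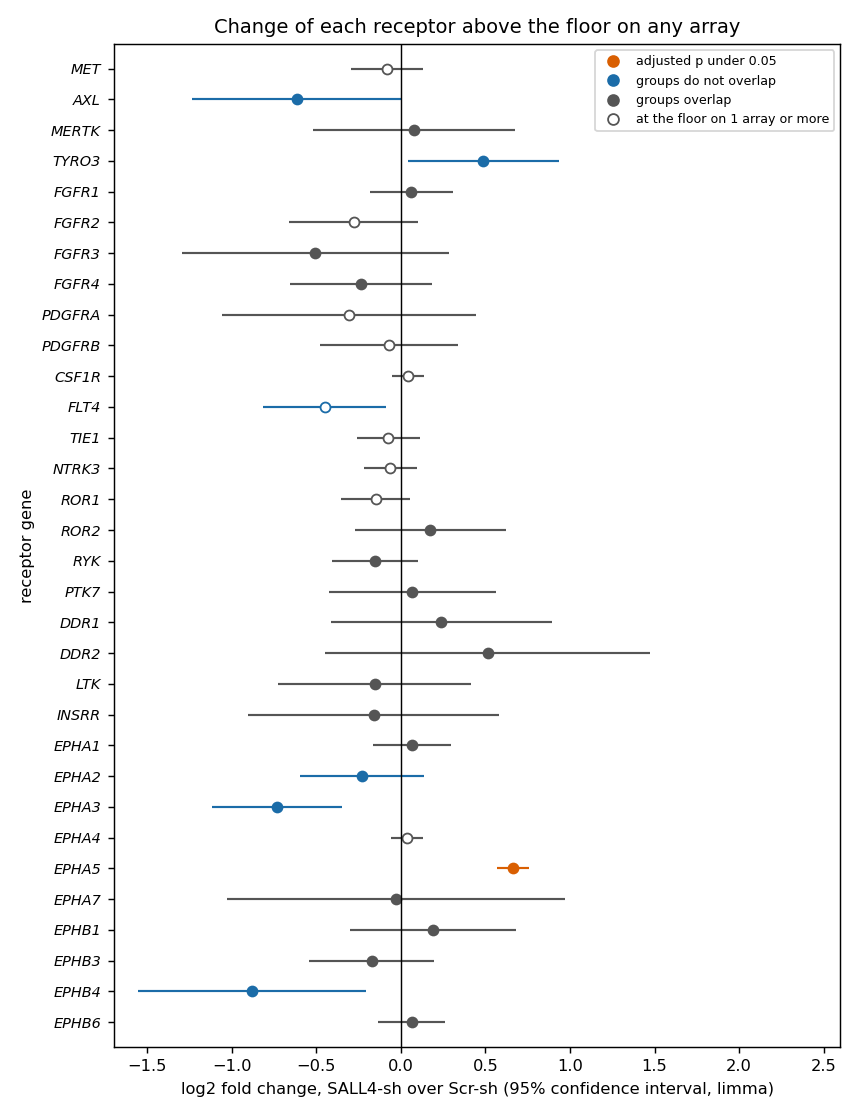
Log2 fold change of SALL4-sh over Scr-sh (points) with its 95% confidence interval from limma (lines) for the 32 receptors above the floor on any array. Orange marks EPHA5 at an adjusted p under 0.05, blue marks the other 6 receptors without overlap between groups, and open points were at the floor on 1 array or more. Such points can understate a change.

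Among the 22 receptors above the floor on all 6 arrays, 11 had log2 fold changes over 0 and 11 under 0, from -0.88 to 0.66. Of all 12057 genes above the floor on all 6 arrays, 6323 were over 0 and 5734 under 0. The 95% confidence interval lay within a 2-fold change either way for 16 of the 22 receptors (8076 of the 12057 genes). It lay within a 1.5-fold change for 6 of the 22 receptors (3478 of the 12057 genes). For the other receptors the interval reached past that size, among them EPHA5, EPHA3 and EPHB4, whose intervals excluded 0. The replicate spread of these 22 receptors was larger in Scr-sh, with a median SD of 0.26 on the log2 scale against 0.16 in SALL4-sh (all genes, 0.23 and 0.19).

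**Figure D4:**
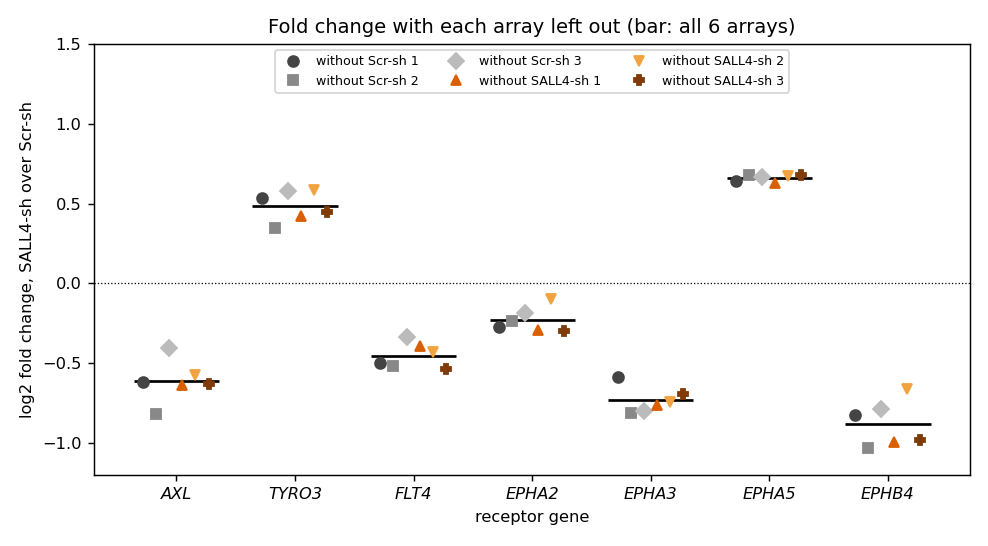
Log2 fold change of SALL4-sh over Scr-sh for the 7 receptors whose groups do not overlap, with all 6 arrays (bars) and with each array left out in turn (symbols). All symbols keep the side of 0 of their bar. AXL ranges from -0.82 to -0.40, and EPHA5 from 0.63 to 0.68.

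The ligands of these receptors were measured on the same arrays. Of 57 listed, 54 were measured, of which 0 were called higher and 1 lower (0.00% and 1.85%, beside the 1.18% and 1.33% of all genes). PDGFA, which acts through PDGFRA, was the one that fell, from 296, 222 and 239.8 in Scr-sh to 138, 125 and 126 in SALL4-sh. The 3 SALL4-sh values lay well under the Scr-sh values. Limma gave a log2 fold change of -0.96, with an adjusted p of 0.0469 that rose to between 0.06 and 0.162 when any array was left out and fell to 0.0083 with the filter. ANGPT1, a TEK agonist, was 18.3, 24.6 and 17.6 in Scr-sh and 35.5, 36.1 and 39.6 in SALL4-sh. The groups were far apart, and the log2 fold change of 0.89 had an adjusted p from limma of 0.0758 over all genes and 0.0143 with the filter. Its receptor TEK was at the floor throughout. ANGPT2, which competes with ANGPT1 for TEK, was 22.6, 26.0 and 10.0 in Scr-sh and at the floor in all SALL4-sh samples. Its Scr-sh mean of 19.5 was 2.44-fold over the floor. The log2 fold change of -1.17, which the floor can understate, had an interval of -2.26 to -0.08 (adjusted p = 0.257 from limma, 0.043 with the filter). In Scr-sh 3 it was close to the floor too.

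No other ligand passed the test in either version. CSF1, the ligand of CSF1R, was 16.1, 15.9 and 18.4 in Scr-sh and 10.7, 13.1 and 8.51 in SALL4-sh (adjusted p = 0.172 from limma). FGF22, AGRN and ARTN are ligands of FGF receptors, of LRP4 with MUSK and of GFRA3 with RET. Their log2 fold changes were -0.27, -0.49 and 0.23 without overlap between groups. ARTN was at the floor in Scr-sh 1 and Scr-sh 3. PDGFC, BDNF, FGF6 and FGF17 were also higher without overlap (0.31, 0.52, 0.32 and 0.29), and none was called. Of the 45 ligands above the floor on any array, 7 were higher and 6 lower without overlap. The shares of all such genes were 15.0% and 12.5%. FGF2, a ligand of FGFR1, was 82.3, 324.5 and 98.7 in Scr-sh and 43.3, 42.6 and 60.7 in SALL4-sh. All SALL4-sh values were lower, but Scr-sh 2 alone stood far above its group, and the interval of the log2 fold change of -1.52 reached from -3.15 to 0.12. Without Scr-sh 2 it was -0.90. PROS1, which encodes the TAM ligand protein S, was 357, 320.0 and 264 in Scr-sh and 461.5, 429 and 357 in SALL4-sh. Its groups were separated by a very small gap, and its log2 fold change was 0.41 (adjusted p = 0.31 from limma). The TAM ligand GAS6 and the MET ligand HGF were at or near the floor, HGF on all 6 arrays. KITLG and WNT5A were at the floor on all 6.

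Of the 8 ephrins, all 8 were measured. None was called, beside 1.18% of all genes called higher and 1.33% called lower. None had separated groups, beside 15.0% higher and 12.5% lower of all genes above the floor on any array. A list of 8 genes is too short to set it apart from all genes. The log2 fold changes of the ephrins above the floor on all arrays ran from -0.32 to 0.48. EFNB2, the ligand of EPHB4, was 88.1, 47.0 and 39.0 in Scr-sh and 104.9, 30.0 and 57.0 in SALL4-sh. It varied about as much within each group as over all 6 arrays, and the interval of its log2 fold change was -1.56 to 1.66. EFNA5, a ligand of EPHA3 and EPHA5, was between 9.89 and 14.1 in Scr-sh and between 8 and 11.3 in SALL4-sh.

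**Figure D5:**
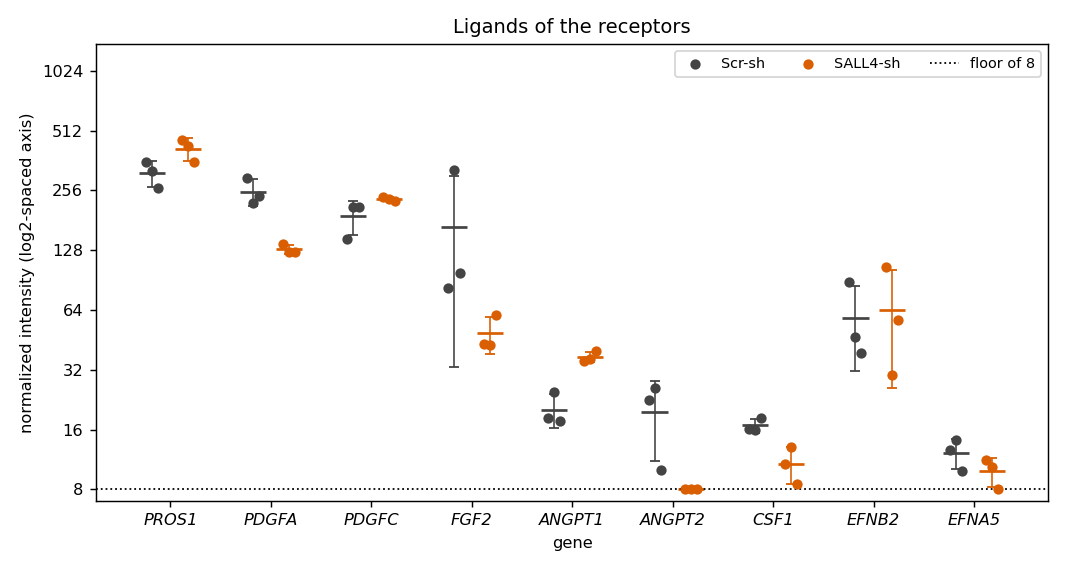
Normalized intensity (log2-spaced axis) of 9 ligands of the receptors. Points are single arrays, horizontal bars are means and error bars are SD (n = 3 per group). A dotted line marks the floor. PDGFA goes from 253 to 129.5, and FGF2 in Scr-sh 2 (324.5) stands apart from the other Scr-sh arrays.

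Co-receptors and adaptors showed no call, with 0 of 26 measured genes higher and 0 lower in limma (0 and 2 at an unadjusted p under 0.05, which is 0.00% and 7.69%, beside 9.55% and 7.87% of all genes). SDC1, a syndecan that presents FGFs, PLCG1, a phospholipase recruited by many members, and GFRA4, a GDNF-family co-receptor, were lower without overlap, with log2 fold changes of -0.40, -0.35 and -0.37 and adjusted p-values from limma of 0.142, 0.248 and 0.304. CD44, PLCG2 and GFRA3 had overlapping groups. Of the 22 co-receptors and adaptors above the floor on any array, 0 were higher and 3 lower without overlap (beside 15.0% and 12.5% of all such genes). Among receptor phosphatases and the proteases that shed or process receptors, 1 of 20 rose and 0 fell (5.00% and 0.00%, beside 1.18% and 1.33% of all genes). PTPN12, a phosphatase that acts on several receptor tyrosine kinases, was 248, 276 and 276 in Scr-sh and 358, 341 and 351 in SALL4-sh. The groups were clearly separated, and the log2 fold change was 0.39, with an adjusted p of 0.0473 in limma. That call did not hold with the intensity filter (adjusted p = 0.133) or with any array left out (0.0534 to 0.16). ADAM17, a sheddase, and the phosphatases PTPN6 and PTPN2 were higher without overlap, and PTPN1 was lower. Their log2 fold changes were 0.46, 0.56, 0.53 and -0.54, with adjusted p-values from limma of 0.22 to 0.42. PTPRK was also lower without overlap, at 8.96, 10.7 and 8.10 in Scr-sh and at the floor in all SALL4-sh samples. Of the 18 genes of this list above the floor on any array, 4 were higher and 2 lower without overlap. The shares of all such genes were 15.0% and 12.5%. At an unadjusted p under 0.05, 3 of the 20 were higher and 0 lower (15.0% and 0.00%, beside 9.55% and 7.87% of all genes). FURIN, a proprotein convertase, had a log2 fold change of -0.39 with overlapping groups. Of 8 measured receptor tyrosine kinases outside the list, among them INSR, 0 were called in either direction (0 and 0 at an unadjusted p under 0.05).

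Markers were compared between the groups in the same way. Of 7 fibroblast markers, DCN and FAP were at the floor on all 6 arrays and 4 were above it on all 6. COL1A1, a collagen that is also a DDR ligand, fell by 0.48 on the log2 scale (limma, adjusted p = 0.0387), a call that was lost with the filter (0.0735) and with any array left out (0.0778 to 0.131). COL1A2 and THY1 were lower without overlap (-0.79 and -0.76, adjusted p = 0.132 and 0.0571 from limma, 0.0301 and 0.0188 with the filter), while COL3A1 had a log2 fold change of 0.24. The summed intensity of the fibroblast list was 471 to 534.5 in Scr-sh and 335.0 to 407.7 in SALL4-sh. Of 7 epithelial markers, CDH1, the adhesion protein E-cadherin, rose from 10.5, 8 and 8.68 to 17.2, 16.1 and 17.3 (limma, adjusted p = 0.0456). That call held with the filter (0.00965) and was lost when any array but Scr-sh 1 was left out (0.0686 to 0.155). At a floor of 16 its log2 fold change was 0.08 (adjusted p = 0.39 from limma), against 0.91 at the floor of 8. The other epithelial markers did not pass the test, with EPCAM at 0.43, KRT18 at -0.44 and KRT19 at -0.11. The summed intensity of that list, most of it EPCAM, was 688 to 1022 in Scr-sh and 932 to 1213 in SALL4-sh. The part of these markers in the receptor values was not tested. In bulk RNA, fewer cells that express a gene and less of its RNA per cell cannot be told apart.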

How the data were processed

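Total RNA of 3 Scr-sh and 3 SALL4-sh samples was hybridised to Affymetrix arrays. A single table deposited by the authors held normalized intensity on a linear scale for 32321 probe sets. RMA is named in the submitters' processing notes; no source used here gives a version. Every value under 8 stands at 8, which holds 38.8% to 40.4% of an array's values and hides differences among weak signals. No 2 arrays were identical, and their number limits the precision.

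Gene symbols came from the platform annotation. Probe sets with several symbols (1388) or none (11775) were left out, and the probe set with the highest mean stood for each of 18404 genes. The 2 groups were compared on log2 intensity by lmFit and eBayes of limma 3.58.1, run in R 4.3.3. No filter was used, tests were two-sided, and p-values were adjusted by Benjamini-Hochberg over all genes, with a threshold of 0.05. The procedure was also run on simulated data drawn from each gene's mean and spread on these arrays. Changes were set there only in brighter genes, and the outcome is not given here. An exact two-sided permutation test over the 20 labelings of 3 against 3 arrays cannot go below p = 0.1, the value of every gene without overlap that was above the floor in either group. The prior degrees of freedom were 0.422 without a filter and 5.33 with the 25th percentile filter, so without it each gene's own spread decided its call.

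The members and lists were chosen with earlier results of these data known. Values on every array are given for members called, members without overlap and the 3 with the highest Scr-sh level (EPHA3, FGFR1 and RYK). Of each list, up to 6 genes with the smallest p that were not at the floor throughout could be named. Some of these are given on every array, others by fold change or range only, and some are not named. ANGPT2, FGF2, PROS1, EFNB2 and EFNA5 were added as ligands of members described. PDGFC, BDNF, FGF6, FGF17 and PTPRK were added to complete the genes without overlap in their lists. Promoters came from the RefSeq table of GRCh38.p14, which held 41 of the 44 members. Alternatives were median centring, cyclic loess, quantile normalization, 2 filters, a floor of 16, eBayes with trend and robust, array weights, a replicate block, averaging over a gene's probe sets, each array left out and a one-way ANOVA with the same adjustment.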

Additional observations from a re-analysis of the deposited data

How the results depend on the processing

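EPHA5 kept its direction under every alternative run and was called under all but 4 of them: eBayes with trend and robust, the replicate block (adjusted p = 0.105 from limma), and without Scr-sh 3 or SALL4-sh 2. AXL, TYRO3, EPHA2 and RYK kept their direction and stayed uncalled throughout, FLT4 did so except at a floor of 16, where no difference was left, and FGFR1 turned to -0.0158 after cyclic loess. The calls of PDGFA, PTPN12, COL1A1 and CDH1 were lost with trend and robust, by one-way ANOVA, under the block and after median centring (adjusted p = 0.0522, 0.06, 0.0587 and 0.0511 from limma). A floor of 16 also ended those of PDGFA, PTPN12 and CDH1 (0.0547, 0.0548 and 0.39), quantile normalization those of PTPN12 and COL1A1 (0.0627 and 0.0538), and cyclic loess or leaving out floor genes that of PTPN12 (0.069 and 0.0687). EPHA3 was also called with genes at the floor on all arrays left out (adjusted p = 0.0373 from limma). Receptors called higher numbered 0 with trend and robust and under the block, and 0 to 1 with an array left out. Receptors called lower numbered 2 with the 25th percentile filter and 1 with floor genes left out, when the receptor median was -0.15 and -0.0725. The prior degrees of freedom were 5.33 and 2.35 there, against 0.422, and the cause of the added calls was not tested. Over all genes, 218 higher and 244 lower became 821 and 764 with the 25th percentile filter, 633 and 610 with floor genes left out, 26 and 50 with trend and robust, 47 and 64 by one-way ANOVA, 3 and 7 under the block, and 23 to 231 and 29 to 173 with an array left out. The lowest counts came without SALL4-sh 1, and the highest without Scr-sh 2. SALL4 had a log2 fold change of -1.97 under the block (adjusted p = 0.115 from limma) and of -2.07 to -1.87 with an array left out, past the threshold only without Scr-sh 2. Same-numbered arrays of both groups had deviations that correlated at 0.10, 0.09 and 0.01 across all probe sets, those at the floor included. Of the 6 arrays, 5 correlated best with their own number, a hint from the data and not from the design. Whether the numbers are pairs is not settled by these values. The floor of 8 limits what can be measured for 18 of the 40 receptors.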
